A study of Mus musculus with 14 samples.

Results

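The late cornified envelope (Lce) and small proline-rich (Sprr) genes were followed through MC903-treated and untreated mouse neck skin. The members are every gene whose symbol is Lce or Sprr followed by a digit, which gave 39 of the 35328 genes in the table. No single member was picked by its value, but the families were chosen with earlier results of these data known. They comprise 14 Lce1 genes, 6 Lce3 genes, Lce6a, 2 Sprr1 genes, 13 Sprr2 genes and Sprr3, Sprr4 and Sprr5. Of these, 37 had enough counts to be tested. Sprr2c-ps, a pseudogene, had 0 counts in every library, and Sprr3, known mainly from the lining of the mouth and oesophagus, reached 0.0326 CPM in 1 cKO library and had 0 counts elsewhere.

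In the outermost living layers of the epidermis, keratinocytes build a cornified envelope, a shell of proteins that transglutaminases cross-link beneath the plasma membrane. Sprr proteins act as flexible cross-bridges between larger envelope proteins such as loricrin, and Lce proteins are added late, as the cell dies. In human skin LCE1 genes are expressed in normal cornifying epidermis, whereas LCE3 genes are known for their induction after barrier injury and in psoriasis. The genes lie side by side in the epidermal differentiation complex. On mouse chromosome 3 the RefSeq order runs from the Sprr2 genes over Sprr1b, Sprr3, Sprr1a and Sprr4 to involucrin, then Lce6a, the Lce1 genes and the Lce3 genes, and Lce1m stands apart from the other Lce1 genes, beyond Lce3f.

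The study sequenced polyadenylated RNA from cryosectioned neck skin of C57BL/6J mice labelled female, with 1 mouse per sample. MAR1 skin (3 libraries) came from wild-type mice aged 6 weeks. They were injected with MAR1, which recognises FcεRI alpha, part of the high-affinity IgE receptor, and is given to remove basophils, although mast cells carry this receptor too. Isotype skin (3 libraries) came from wild-type mice of the same age given the control antibody. Both received 20 µg per injection in 100 µL, 3 times before MC903 and every other day from then on. cKO skin (3 libraries) came from Pdgfra-Cre Il4ra fl/fl mice, which lose the receptor chain shared by IL-4 and IL-13 wherever the Pdgfra promoter is active, chiefly in fibroblasts and related mesenchymal cells, while keratinocytes should keep it. fl/fl skin (3 libraries) came from Il4ra fl/fl mice without Cre. Mice of the last 2 groups were aged 6 to 7 weeks and were not injected. All 4 groups received MC903 (calcipotriol), a vitamin D analogue used to provoke dermatitis, at 1 nmol in 100 µL of ethanol daily for 6 days. Untreated skin (2 libraries) came from wild-type mice aged 6 weeks, and whether vehicle was applied to it is not stated.

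Estimated counts per library totalled, in units of 1e6, 5.78 to 10.6 in MAR1 skin, 34.3 to 35.6 in isotype skin, 16.5 to 30.8 in cKO skin, 45.1 to 48 in fl/fl skin and 37.5 and 55.3 in untreated skin. Several libraries stood apart. MAR1 libraries had the lowest mitochondrial shares, 0.128% to 0.342% of counts, and 3.86% to 9.29% of their counts fell on olfactory and vomeronasal receptor genes, against 0.269% to 0.439% with isotype. Salivary gland markers summed to 782.5 CPM (counts per 1e6 counts, with TMM library sizes) in fl/fl library 1 and 11430 CPM in fl/fl library 2, and skeletal muscle markers to 58320 CPM in fl/fl library 1. cKO library 1, labelled female, held the Y-linked transcripts Ddx3y (69.8 CPM) and Eif2s3y (53.3 CPM). In cKO library 3 the mitochondrial share was 0.476% and the receptor gene share 2.58%. These shares were 1.71% and 1.48% in cKO library 1, and 2.60% and 0.467% in cKO library 2. Il4ra stood at 70.55, 67.7 and 14.45 CPM in cKO skin, against 214, 145 and 176 CPM in fl/fl skin. In wild-type mice Il4ra stood at 45.68, 23.2 and 8.996 CPM in MAR1 skin and 195.3, 178.2 and 192.4 CPM in isotype skin. In untreated skin it stood at 59.22 and 104.3 CPM. Low Il4ra was thus not limited to cKO skin, and loss of the receptor was not tested. Keratinocyte markers (10 basal genes) were detected in every group.

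Matches to short letter strings just upstream of the start differed between the subfamilies. RefSeq promoters (build GRCm38.p6, from 250 bases before to 50 after the annotated start) were found for 34 of the 39 members. The letters TGANTCA, which the AP-1 (Fos and Jun) factors bind, were searched on both strands and occurred in 9 of the 34 windows (26.5%), against 7.81% of all 32851 promoters. These 9 were both Sprr1 genes and 7 of the 10 Sprr2 genes with a promoter, where the first match lay 193 to 198 bases before the start. The windows of these 7 Sprr2 genes were 63.7% to 89.7% identical to each other, so their matches are not independent of each other. None of the Lce1 or Lce3 windows held TGANTCA. The letters TATAAA occurred in 14 of 34 (41.2%, against 13.6% of all), 29 bases before the start in Lce1m and in the same 7 Sprr2 genes and 30 bases before it in Lce1d and Sprr1b. The STAT6 half-sites TTC and GAA, 4 bases apart, occurred in Sprr2a1, Sprr2a2 and Sprr2a3 (8.82%, against 6.95% of all), which held neither of the other letter strings. The vitamin D receptor's DR3 element was found in none of the 34, against 0.256% of all promoters. A match describes letters in this window and not a bound site. Only the exact strings were counted. The Lce1g and Lce3d sequences printed below hold the letters ataaaagg near the start, which were not counted as TATAAA.

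**Figure D1:**
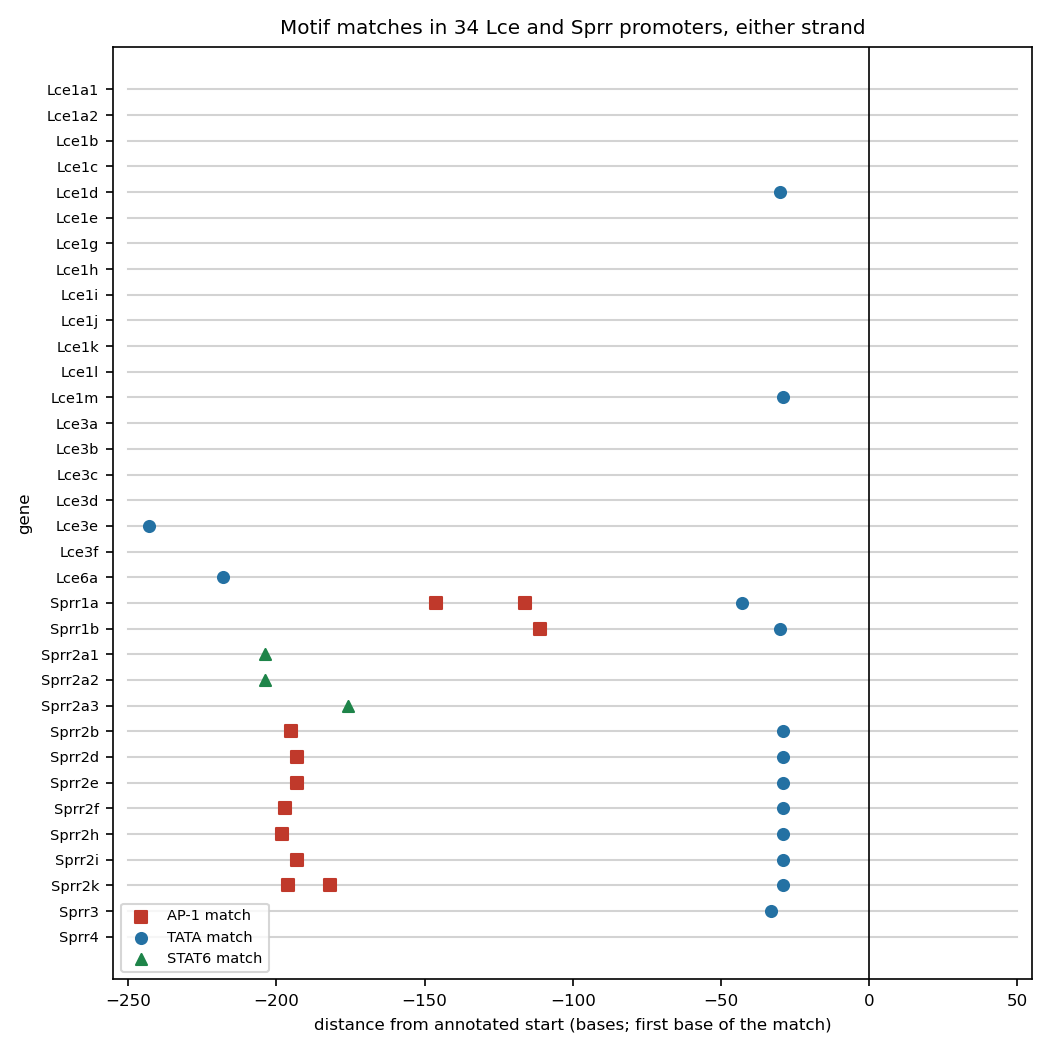
Position of AP-1, TATA and STAT6 letter matches in the 34 member promoters, in bases from the annotated start (0), with 1 line per gene. Red squares (AP-1) sit at 193 to 198 bases before the start in 7 Sprr2 genes and nearer the start in Sprr1a and Sprr1b, green triangles (STAT6) occur at 204 bases in Sprr2a1 and Sprr2a2 and 176 bases in Sprr2a3, and blue circles (TATA) cluster at 29 and 30 bases.

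The 250 bases before the start are shown for 8 members on whose values the results turn, written along the gene from 5′ to 3′, with matches to the 3 strings in capitals. Lce1m (chr3:93019062-93019311, minus strand) is shown beside Lce1g (chr3:92752339-92752588, minus strand), because the results below differ most between them within the Lce1 genes.
Lce1m: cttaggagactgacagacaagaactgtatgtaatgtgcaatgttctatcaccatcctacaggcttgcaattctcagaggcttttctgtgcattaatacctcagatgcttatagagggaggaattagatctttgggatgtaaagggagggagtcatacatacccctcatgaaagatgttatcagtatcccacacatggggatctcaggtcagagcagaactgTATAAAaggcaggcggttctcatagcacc
Lce1g: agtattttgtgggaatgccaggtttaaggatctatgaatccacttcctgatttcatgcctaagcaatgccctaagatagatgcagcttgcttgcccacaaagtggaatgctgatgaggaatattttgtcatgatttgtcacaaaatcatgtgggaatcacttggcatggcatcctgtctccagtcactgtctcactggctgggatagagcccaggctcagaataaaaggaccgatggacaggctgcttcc
Lce3d (chr3:92957140-92957389, plus strand) stands for the Lce3 genes, and its 300-base window was 85% identical to that of Lce3e.
Lce3d: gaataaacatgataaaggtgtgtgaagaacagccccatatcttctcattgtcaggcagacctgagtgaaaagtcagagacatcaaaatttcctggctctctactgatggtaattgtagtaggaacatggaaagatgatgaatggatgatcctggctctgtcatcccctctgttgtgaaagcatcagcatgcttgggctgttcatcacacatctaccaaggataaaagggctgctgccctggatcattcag
Sprr1a (chr3:92485882-92486131, minus strand) and Sprr1b (chr3:92438780-92439029, minus strand) carry AP-1 letters 111 to 146 bases before the start.
Sprr1a: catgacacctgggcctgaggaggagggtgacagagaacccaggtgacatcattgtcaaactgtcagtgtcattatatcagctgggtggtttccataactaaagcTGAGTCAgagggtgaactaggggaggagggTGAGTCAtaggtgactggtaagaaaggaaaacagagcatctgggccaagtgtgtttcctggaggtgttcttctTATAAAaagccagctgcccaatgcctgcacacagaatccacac
Sprr1b: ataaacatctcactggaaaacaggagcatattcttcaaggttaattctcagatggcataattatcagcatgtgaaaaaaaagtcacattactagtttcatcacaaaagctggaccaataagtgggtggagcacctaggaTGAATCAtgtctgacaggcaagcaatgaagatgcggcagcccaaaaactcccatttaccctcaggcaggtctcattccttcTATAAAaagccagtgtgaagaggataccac
Sprr2b (chr3:92316455-92316704, plus strand) and Sprr2h (chr3:92385435-92385684, plus strand) show the arrangement found in 7 Sprr2 genes.
Sprr2b: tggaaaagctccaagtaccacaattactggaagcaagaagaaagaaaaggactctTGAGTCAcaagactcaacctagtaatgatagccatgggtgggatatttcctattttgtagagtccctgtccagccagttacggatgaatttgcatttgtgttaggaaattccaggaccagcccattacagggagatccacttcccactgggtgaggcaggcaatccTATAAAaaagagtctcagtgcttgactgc
Sprr2h: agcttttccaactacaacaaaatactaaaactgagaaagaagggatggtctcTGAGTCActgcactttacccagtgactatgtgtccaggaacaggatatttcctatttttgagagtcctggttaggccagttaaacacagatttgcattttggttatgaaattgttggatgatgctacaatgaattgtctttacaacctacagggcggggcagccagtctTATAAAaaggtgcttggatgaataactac
Sprr2a2 (chr3:92250397-92250646, plus strand) shows the other Sprr2 arrangement, and its window was 100% identical to that of Sprr2a1 and 90.7% identical to that of Sprr2a3.
Sprr2a2: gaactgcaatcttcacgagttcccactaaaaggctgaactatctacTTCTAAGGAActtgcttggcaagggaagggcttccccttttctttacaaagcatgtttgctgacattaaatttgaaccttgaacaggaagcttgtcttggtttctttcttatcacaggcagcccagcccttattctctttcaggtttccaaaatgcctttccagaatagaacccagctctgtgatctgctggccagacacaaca

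Transcripts of these genes overlap in sequence, which limits how counts can be assigned. The share of a gene's 31-base words that also occur in another member was 26.7% to 60.3% in the Lce3 genes, 13.2% to 52.4% in the Lce1 genes other than Lce1m, 96.9% in Sprr2a1 and 97.8% in Sprr2a2. It was 0.9% in Lce1m, 3% in Sprr2h and 0% in Lce6a, Sprr1a, Sprr1b and Sprr4. Values of Sprr2a1, Sprr2a2 and Sprr2a3 are therefore also given as a sum, and single Lce3 values carry this uncertainty. Sprr2a1 and Sprr2a2 also share 31-base words with 76 genes outside the members, and Sprr2a3 with 68. The sum does not remove that overlap.

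Together the members took 1.42%, 1.16% and 0.802% of all counts in MAR1 skin, 1.07%, 0.858% and 1.06% in isotype skin, 0.796%, 1.05% and 1.78% in cKO skin and 0.608%, 1.39% and 1.88% in fl/fl skin, against 0.473% and 0.267% in untreated skin. Every MC903-treated library lay above both untreated libraries. The make-up differed as well. By transcript length, Lce3 genes made up 7.35% to 19.5% of the Lce1 and Lce3 signal in the 12 MC903-treated libraries, against 0.0688% and 0.0423% in untreated skin. Sprr2a2, whose protein is an envelope cross-bridge, took the most counts of any member in all 12 MC903-treated libraries, and Lce1m did so in both untreated libraries. That ranking is by counts without regard to length. The longest Sprr2a2 transcript has 2867 bases, against 705 for Lce1a1 and 874 for Lce1m.

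**Figure D2:**
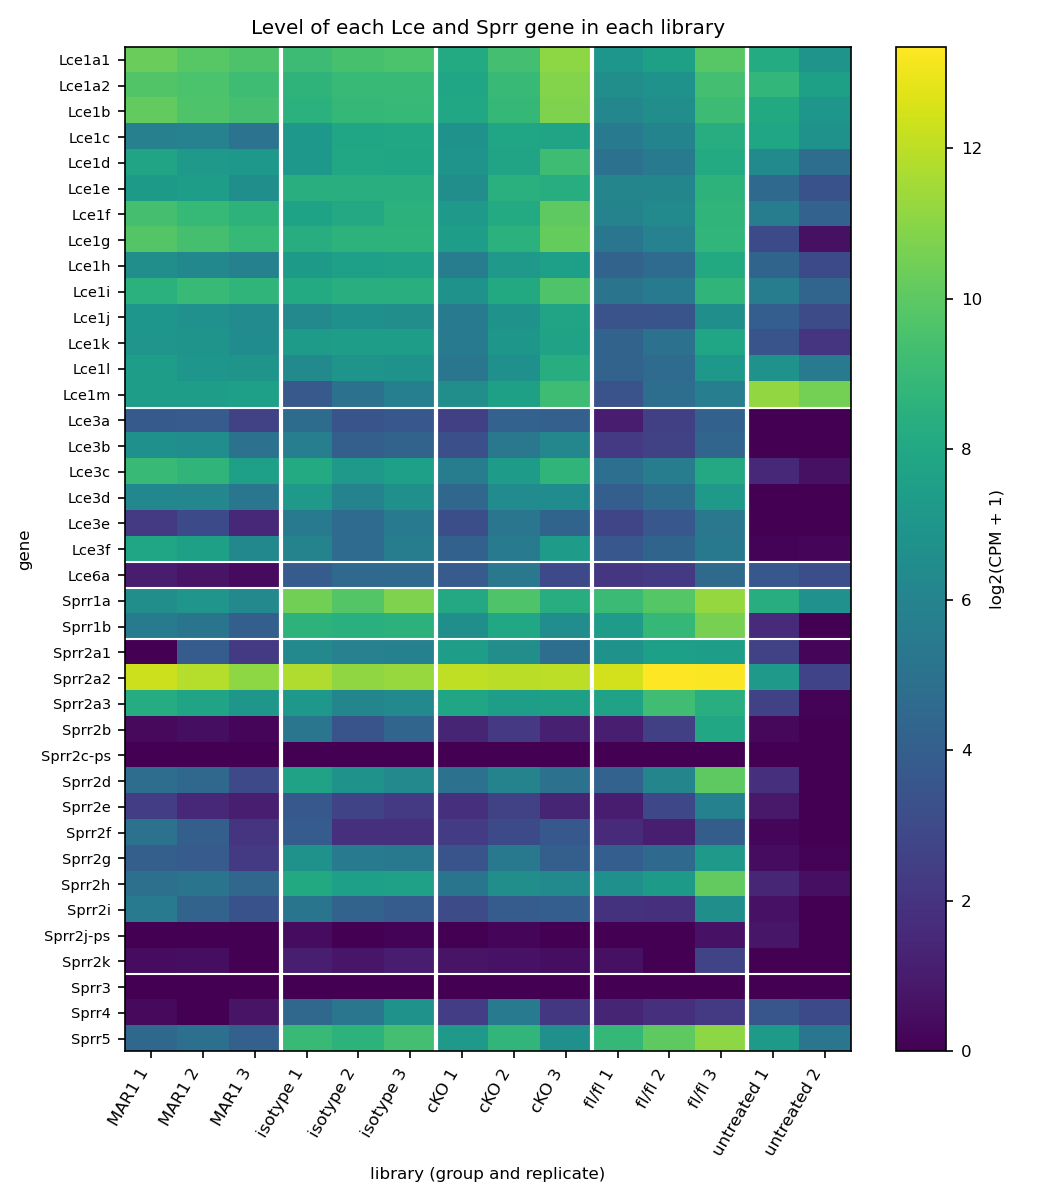
Level of each of the 39 members (rows, by subfamily) in each of the 14 libraries (columns, by group), as log2(CPM + 1) on the colour scale. The Lce3 rows are dark in the 2 untreated columns and bright in the MC903-treated ones, the Lce1m row is brightest in untreated skin, and the Sprr1, Sprr4 and Sprr5 rows are darker in the MAR1 columns than in the isotype columns.

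Each MC903-treated group was set against untreated skin in 1 edgeR quasi-likelihood fit over all 14 libraries, with Benjamini-Hochberg adjustment over 20940 genes, and a gene was called at an adjusted p under 0.05. The 4 comparisons share the 2 untreated libraries, so they are not independent of each other. In MAR1 skin 24 of the 37 tested members were called (19 higher, 5 lower), where 49.4% of all genes were called (23.5% higher, 25.9% lower). In isotype skin 15 were called (14 higher, 1 lower), where 3.07% of all genes were (1.35% higher, 1.72% lower). In cKO skin 17 were called (16 higher, 1 lower), against 6.82% of all genes (3.86% higher, 2.96% lower). In fl/fl skin 13 were called (12 higher, 1 lower), against 1.72% of all genes (0.769% higher, 0.95% lower). The share of members called was above that of all genes in each of the 4 comparisons, by the least in MAR1 skin. These counts depended on single libraries. Without untreated library 1 the count was 7 in isotype and 5 in cKO skin, and without untreated library 2 it was 5 in fl/fl and 11 in cKO skin. Without isotype library 1 the isotype count was 8.

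The Lce3 genes, the injury-associated branch of the family, showed the largest shifts. All 6 were called higher in each of the 4 comparisons, with a median fitted log2 fold change of 10.87 in MAR1, 12.32 in isotype, 11.95 in cKO and 10.99 in fl/fl skin. The median over all genes was −0.02 in MAR1, 0.11 in isotype, 0.06 in cKO and 0 in fl/fl skin. Lce3a, Lce3b, Lce3d and Lce3e had 0 counts in both untreated libraries, so their fitted fold changes depend on the prior count. With these 4 genes at their lower bound, the Lce3 median was 9.10 in MAR1, 8.71 in isotype, 8.87 in cKO and 7.46 in fl/fl skin. Summed over the 6 genes, the level was 949, 791 and 330 CPM in MAR1 skin, 609, 277 and 415 CPM in isotype skin, 109.5, 383 and 785 CPM in cKO skin and 65, 115 and 522 CPM in fl/fl skin, against 1.96 and 0.663 CPM in untreated skin. The lowest treated library, fl/fl library 1, thus lay far above the highest untreated one.

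Lce3d stood at 72.6, 71.6 and 36.4 CPM in MAR1, 145, 60.6 and 104 CPM in isotype, 21.85, 84.4 and 87.7 CPM in cKO and 15.1, 25.2 and 144 CPM in fl/fl skin. Against a floor of 3 counts per untreated library it was at least 971-fold higher in MAR1, 1660-fold in isotype, 1040-fold in cKO and 991-fold in fl/fl skin. Lce3e stood at 3.77, 7.03 and 1.80 CPM in MAR1, 44.8, 24.7 and 45.6 CPM in isotype, 8.13, 36.8 and 18.45 CPM in cKO and 5.88, 11.25 and 39.9 CPM in fl/fl skin. It was at least 67.8-fold higher in MAR1, 619-fold in isotype, 341-fold in cKO and 307-fold in fl/fl skin. For Lce3e the MAR1 libraries lay at the low end of the treated range, overlapping fl/fl skin, and for Lce3d in its middle. The bounds for Lce3a ran from 122-fold (fl/fl) to 254-fold (isotype), and those for Lce3b from 153-fold (fl/fl) to 1210-fold (MAR1).

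Lce3c took the most counts of the Lce3 genes, 526, 418 and 181 CPM in MAR1, 279, 142 and 187 CPM in isotype, 49.7, 157 and 430 CPM in cKO and 27.9, 49.6 and 261 CPM in fl/fl skin, against 1.87 and 0.521 CPM in untreated skin. Its log2 fold change was 8.27 ± 1.42 (adjusted p = 0.000711, edgeR) in MAR1, 7.39 ± 1.36 (0.0155) in isotype, 7.45 ± 1.37 (0.0144) in cKO and 6.54 ± 1.31 (0.0272) in fl/fl skin. Lce3f stood at 0.0884 and 0.142 CPM in untreated skin and at 231, 191 and 73.8 CPM in MAR1 skin, with log2 fold changes of 10.46 ± 1.34 (MAR1), 8.59 ± 1.26 (isotype), 9.33 ± 1.29 (cKO) and 7.65 ± 1.22 (fl/fl). Neither gene overlapped between treated and untreated skin. Calls of Lce3d and Lce3e held under every alternative setting in MAR1, isotype and cKO skin.

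**Figure D3:**
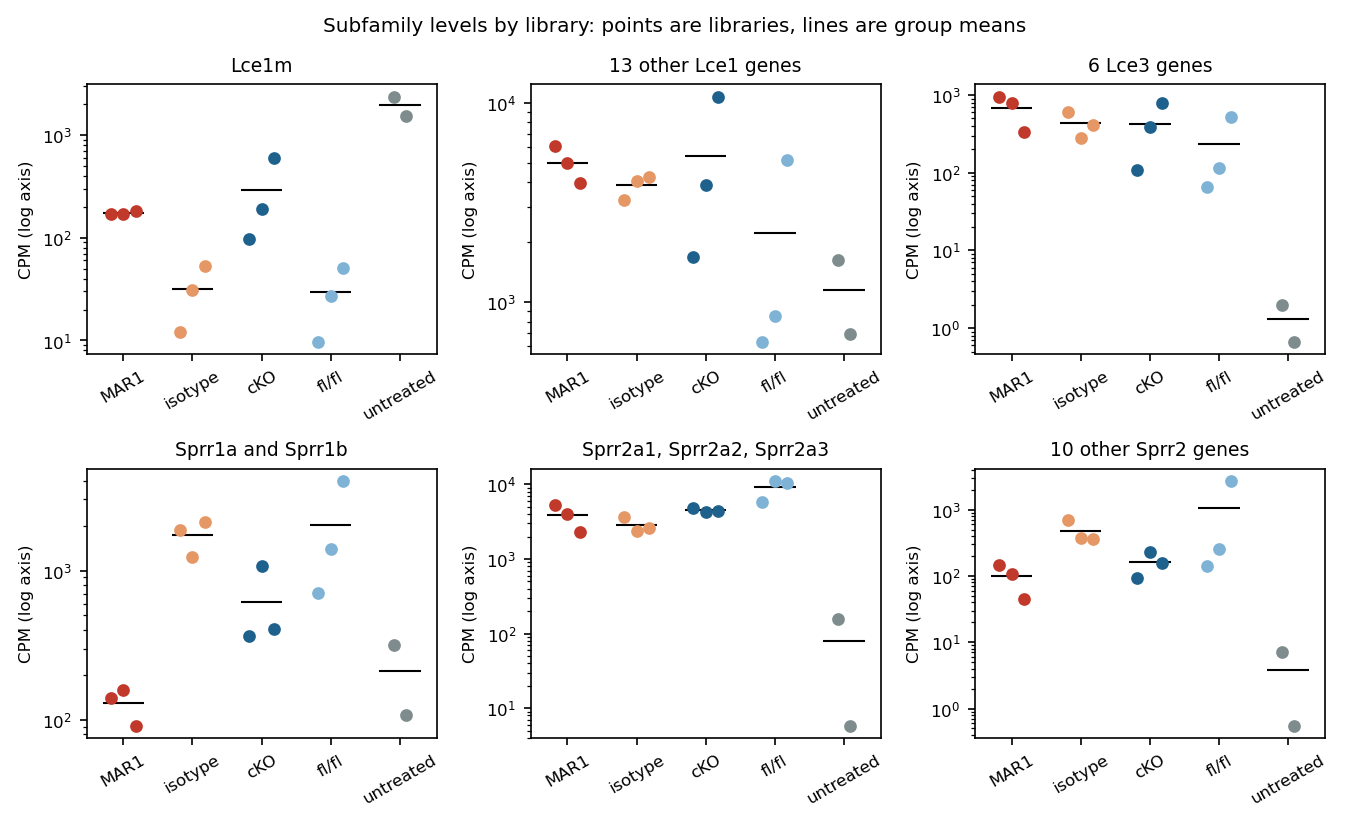
Level of Lce1m and summed levels of 5 subfamily sets in each library (points; log axis in CPM), with group means as lines. Untreated skin is highest for Lce1m (2345 and 1512 CPM) and lowest for the Lce3 and Sprr2 sums, and for Sprr1a and Sprr1b together MAR1 skin (90.7 to 158 CPM) lies below isotype skin (1225 to 2116 CPM) and overlaps untreated skin (108 to 317 CPM).

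Among the Lce1 genes, the branch of ordinary cornification, Lce1m was called lower in all 4 comparisons, while most others had positive values (12 of 13 in MAR1, 13 in isotype, 13 in cKO and 10 in fl/fl skin). Lce1m stood at 170, 168 and 182 CPM in MAR1, 12.1, 30.8 and 52.8 CPM in isotype, 96.5, 189 and 590 CPM in cKO and 9.67, 27.1 and 51.1 CPM in fl/fl skin, against 2345 and 1512 CPM in untreated skin. Both untreated libraries lay above all 12 treated ones. Its log2 fold change was −3.47 ± 0.78 (adjusted p = 0.00317, edgeR) in MAR1, −5.92 ± 0.86 (0.00511) in isotype, −2.72 ± 0.76 (0.0484) in cKO and −6.04 ± 0.86 (0.00505) in fl/fl skin. The isotype call held under all 14 alternatives, and the cKO call was lost under 10 of 14.

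Per transcript length, Lce1m ranked first of the 14 Lce1 genes in both untreated libraries, where it made up 53.6% and 63.6% of the Lce1 sum. Its share was 2.25% to 3.64% in MAR1, 0.305% to 1% in isotype, 3.86% to 4.46% in cKO and 0.801% to 2.52% in fl/fl skin. It ranked 14th in every isotype library and 13th or 14th in fl/fl, but 7th to 10th in MAR1 and 8th to 10th in cKO skin. Lce1a1 ranked first in all 12 treated libraries. These shares compare genes within a library and do not depend on how libraries were scaled.

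The other 13 Lce1 genes were higher on balance after MC903, with a median log2 fold change of 2.55 in MAR1, 3.05 in isotype, 3.27 in cKO and 1.85 in fl/fl skin. Over all 14 Lce1 genes the fl/fl median was 1.48, and it was −0.39 without fl/fl library 3. Lce1g showed the widest difference, at 873, 689 and 480.5 CPM in MAR1, 322, 396 and 387 CPM in isotype, 171, 366 and 1145 CPM in cKO and 36.1, 59.25 and 441 CPM in fl/fl skin, against 7.02 and 0.521 CPM in untreated skin. It rose by a log2 fold change of 7.49 ± 1.54 (adjusted p = 0.00209, edgeR) in MAR1, 6.60 ± 1.48 (0.0321) in isotype and 7.21 ± 1.52 (0.0222) in cKO skin. In fl/fl skin the value was 5.56 ± 1.40 (0.068), past no threshold although the groups did not overlap. Lce1e and Lce1k were likewise called higher in MAR1, isotype and cKO skin, Lce1f in MAR1 and cKO skin, and Lce1i and Lce1j in MAR1 skin. No Lce1 gene was called higher in fl/fl skin by edgeR. Over all members, edgeR called 12 higher there and DESeq2 25.

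Lce1a1, which took the most counts of the Lce1 genes in the 12 MC903-treated libraries, stood at 1264, 924 and 794.5 CPM in MAR1, 571, 692 and 762.5 CPM in isotype, 287, 658 and 2144 CPM in cKO and 130, 190 and 932 CPM in fl/fl skin, against 290 and 119 CPM in untreated skin. Its log2 fold changes, from 1.03 ± 0.86 in fl/fl to 2.33 ± 0.91 in cKO skin, passed the threshold in none of the 4 comparisons. Lce1c was called lower in MAR1 skin alone (−1.83 ± 0.68, adjusted p = 0.038), a call lost under 11 of 14 alternatives.

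The Sprr1 pair had opposite signs in MAR1 skin alone, and only Sprr1b was called. The difference between the 2 genes was not tested. Sprr1b stood at 43.45, 35 and 15.3 CPM in MAR1, 397, 357 and 380 CPM in isotype, 99.9, 245 and 91.8 CPM in cKO and 160, 469 and 1569 CPM in fl/fl skin, against 2.17 and 0.0237 CPM in untreated skin. It rose by 4.81 ± 1.31 (adjusted p = 0.00967, edgeR) in MAR1, 8.40 ± 1.55 (0.0155) in isotype, 7.02 ± 1.46 (0.0209) in cKO and 9.35 ± 1.61 (0.0134) in fl/fl skin on the log2 scale. The untreated libraries differed widely from each other, and the isotype call was lost without isotype library 1. Sprr1a, also known as a growth-associated gene of regenerating neurons, had a higher base of 315 and 108 CPM. Its log2 fold change was −1.10 ± 0.65 (0.162) in MAR1, 2.68 ± 0.73 (0.0659) in isotype, 1.15 ± 0.68 (0.268) in cKO and 2.62 ± 0.73 (0.0843) in fl/fl skin, none past the threshold. For Sprr1a every isotype and fl/fl library still lay above both untreated libraries.

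For the Sprr2 genes, 6 of 12 tested were called higher in MAR1, 4 in isotype, 5 in cKO and 4 in fl/fl skin, and none lower. Sprr2a2 stood at 5042, 3747 and 2193 CPM in MAR1, 3427, 2245 and 2499 CPM in isotype, 4351, 3987 and 4190 CPM in cKO and 5459, 10370 and 9807 CPM in fl/fl skin, against 145 and 5.54 CPM in untreated skin. All treated libraries lay above both untreated ones, which themselves differed widely. The sum of Sprr2a1, Sprr2a2 and Sprr2a3 was 2327 to 5342 CPM in MAR1 and 2373 to 3641 CPM in isotype skin. It was 4258 to 4751 CPM in cKO and 5780 to 11170 CPM in fl/fl skin, against 155 and 5.78 CPM in untreated skin. Sprr2a2 rose by 5.60 ± 1.07 (adjusted p = 0.00113, edgeR) in MAR1, 5.17 ± 1.04 (0.0203) in isotype, 5.79 ± 1.08 (0.0142) in cKO and 6.82 ± 1.13 (0.0108) in fl/fl skin on the log2 scale. Sprr2h rose by 4.69 ± 1.04 (0.00314) in MAR1, 7.68 ± 1.2 (0.00726) in isotype, 6.04 ± 1.11 (0.0144) in cKO and 8.72 ± 1.26 (0.00547) in fl/fl skin. Sprr2g and Sprr2a3 were also called in each comparison, Sprr2f in MAR1 and cKO skin, and Sprr2i in MAR1 skin. Sprr2j-ps, a transcribed pseudogene near 0 counts, was called in none.

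Lce6a, Sprr4 and Sprr5, each the lone member of its branch, were not called in isotype or cKO skin. In MAR1 skin all 3 were called lower than in untreated skin, Lce6a by a log2 fold change of −3.87 ± 0.93 (adjusted p = 0.00456, edgeR), Sprr4 by −5.09 ± 1.28 (0.00631) and Sprr5 by −2.09 ± 0.71 (0.0254). In fl/fl skin Sprr5 was called higher (3.70 ± 0.83, 0.0411). The fl/fl call of Sprr5 was lost without fl/fl library 3 or untreated library 2, and the MAR1 call without MAR1 library 1, MAR1 library 3 or untreated library 1. The MAR1 call of Sprr5 was also lost under RLE scaling, DESeq2, a stricter filter and keratinocyte scaling, where its log2 fold change came as close to 0 as −0.42. In these tissue sections, fewer cells of a type and less RNA per cell cannot be told apart.

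**Figure D4:**
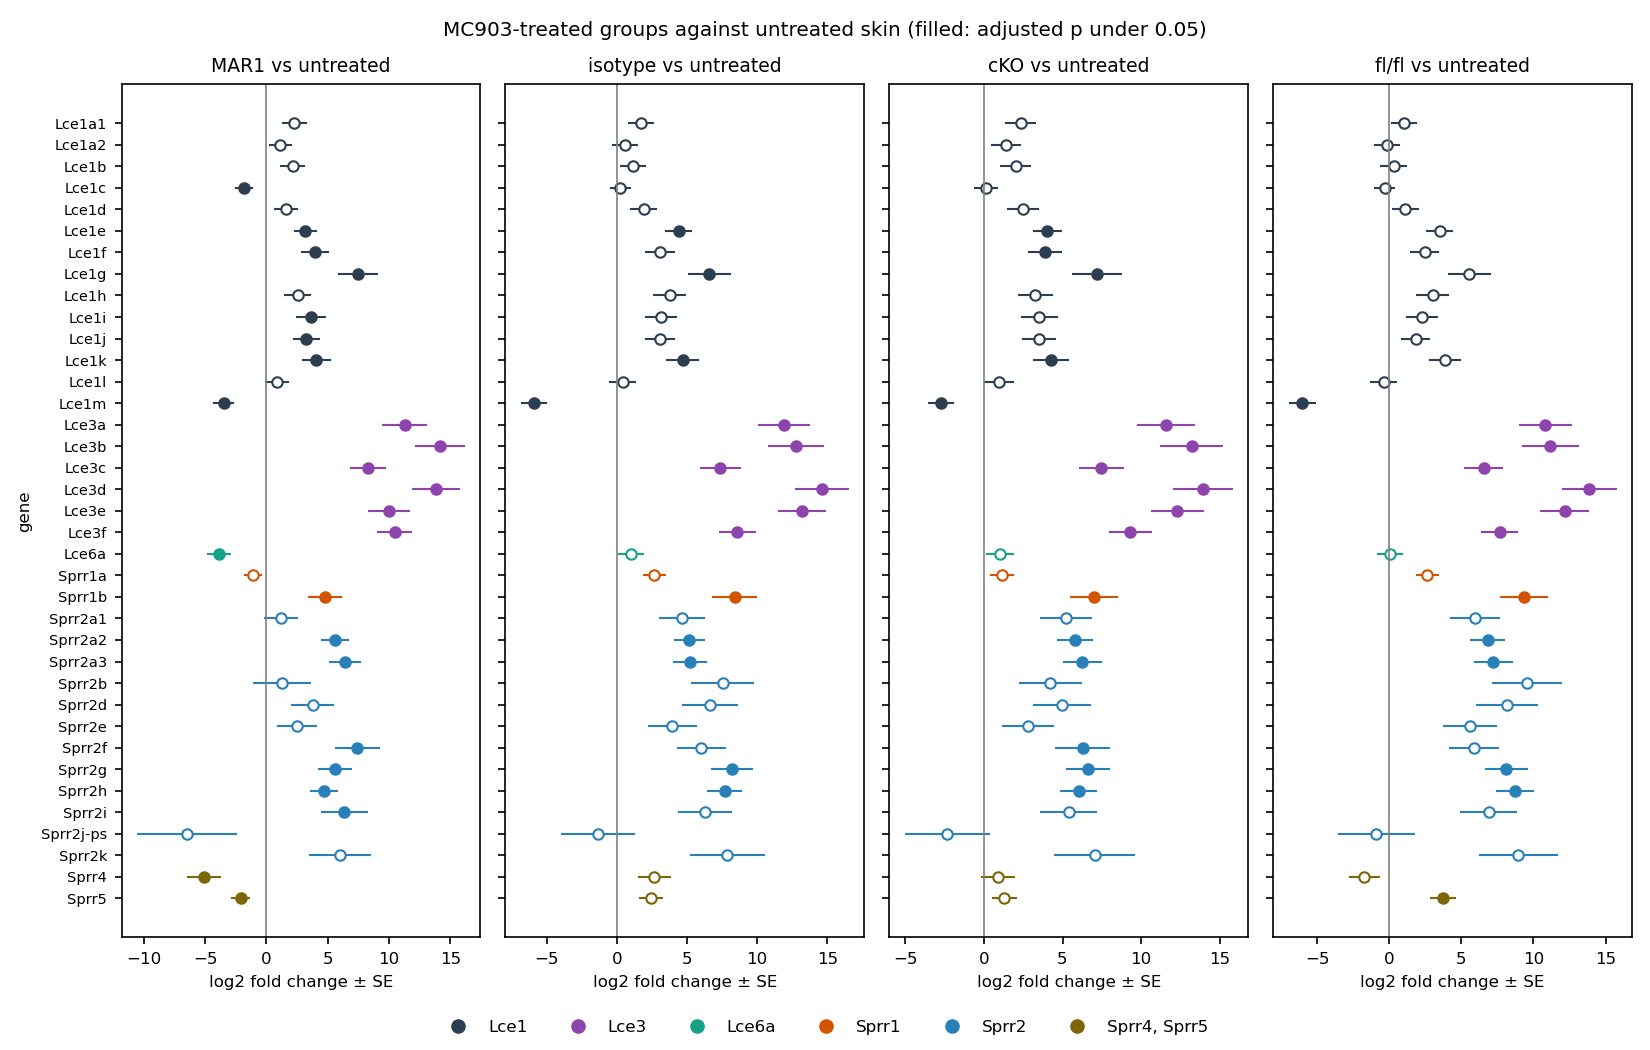
Log2 fold change ± SE of the 37 tested members in MAR1, isotype, cKO and fl/fl skin against untreated skin, with filled points at an adjusted p under 0.05 and colours for subfamilies. The 6 Lce3 genes lie between fitted values of 6.54 and 14.61 over the 4 panels, Lce1m lies left of 0 in every panel, and Lce6a, Sprr4 and Sprr5 lie left of 0 in the MAR1 panel.

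MAR1 skin was then set against isotype skin, which asks how the injected antibody alters MC903-treated skin. Loss of basophils was not examined here. Both Sprr1 genes, 4 Sprr2 genes, Sprr4, Sprr5, Lce6a, Lce1c and Lce3e were called lower in MAR1 skin, and Lce1m and Lce3f higher. Of 37 members, 13 were called (2 higher, 11 lower), 35.1% of them, where 49.1% of all genes were called (22.6% higher and 26.5% lower), so the number called is not above the background. The median log2 fold change was 0.45 over Lce1, 0.14 over Lce3, −3.69 over Sprr1 and −2.25 over Sprr2, with 0 over all genes. Of 16 tested Sprr genes, 12 had negative values, and Sprr2a2, Sprr2a3, Sprr2f and Sprr2i had positive ones. The split of calls depends on the scaling. With library sizes taken from basal keratinocyte markers, which moved the median of all genes by 1.86, 20 members were called, 15 higher and 5 lower, where 44.5% of all genes were called and 94.5% of those were higher. Under that scaling 3 Sprr2 genes were called higher and 1 lower, and the Sprr2 median was −0.42, against 1.87 over all genes.

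Sprr5 stood at 21.5, 28.1 and 16.2 CPM in MAR1 skin, against 499.5, 395 and 657 CPM in isotype skin. The groups did not overlap, and the log2 fold change was −4.56 ± 0.73 (adjusted p = 0.000466, edgeR). Sprr4, an envelope precursor, stood at 0.257, 0 and 0.6 CPM in MAR1 skin, against 21.55, 36.6 and 113 CPM in isotype skin. MAR1 skin lay at the limit of detection, where 3 counts correspond to 0.257 to 0.45 CPM. The log2 fold change of Sprr4 was −7.77 ± 1.31 (0.000668).

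Sprr1a stood at 96.5, 123 and 75.4 CPM in MAR1 skin, against 1464, 867 and 1736 CPM in isotype skin. No MAR1 library reached the lowest isotype library, and the log2 fold change was −3.79 ± 0.65 (adjusted p = 0.000635, edgeR). Sprr1b was lower by a similar amount (−3.59 ± 1.02, 0.0122). Lce6a stood at 1.03, 0.603 and 0.3 CPM in MAR1 skin, against 13.8, 22.8 and 22.9 CPM in isotype skin, and fell by 4.88 ± 0.92 on the log2 scale (0.00109). Calls of Sprr5, Sprr4, Sprr1a, Lce6a and Sprr2b held under all 14 alternatives, keratinocyte scaling included, and that of Sprr1b was lost under keratinocyte scaling.

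The Sprr2 genes split. Summed, Sprr2a1, Sprr2a2 and Sprr2a3 stood at 5342, 3982 and 2327 CPM in MAR1 skin, against 3641, 2373 and 2638 CPM in isotype skin, which overlap. The other 10 Sprr2 genes summed to 148, 105 and 44.7 CPM in MAR1 skin, against 700, 379 and 359.5 CPM in isotype skin, which do not. Sprr2b stood at 0.257, 0.402 and 0.15 CPM in MAR1 skin, against 36.5, 10 and 19.5 CPM in isotype skin. It fell by 6.28 ± 1.84 on the log2 scale (adjusted p = 0.0139, edgeR). The size of that fall is uncertain, because the MAR1 counts of Sprr2b were 3, 4 and 1, at or near the limit of detection. Sprr2h stood at 29.2, 33.75 and 20.4 CPM in MAR1 skin, against 279, 183 and 200.5 CPM in isotype skin, and fell by 2.99 ± 0.80 (0.00864), a call lost under keratinocyte scaling. Sprr2g (−2.62 ± 0.90, 0.0292) was also called lower and lost its call under 7 of 14 alternatives. Sprr2a1 (−3.46 ± 1.24, 0.0352) was called lower, but it shares 96.9% of its 31-base words with other members and lost its call under 8 of 14 alternatives.

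Sprr2 counts were 3923%, 2588% and 2615% of Sprr1 counts in MAR1 skin, against 233%, 225% and 142% in isotype skin. This ratio lies within a library and is free of the scaling. Most of its difference lies in the Sprr1 sum, which was 90.7 to 158 CPM in MAR1 skin, against 1225 to 2116 CPM in isotype skin. Sprr2a1, Sprr2a2 and Sprr2a3, whose sum overlapped between the groups, made up 97.3% to 98.1% of Sprr2 counts in MAR1 skin. In isotype skin their share was 83.9% to 88%.

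Lce1m was higher in MAR1 than in isotype skin, with 168 to 182 CPM against 12.1 to 52.8 CPM, and a log2 fold change of 2.44 ± 0.72 (adjusted p = 0.0133, edgeR). Without isotype library 1 its adjusted p was 0.0507. Lce1c was lower, with 54.7, 59.4 and 32.7 CPM in MAR1 skin, against 136.5, 234 and 252.5 CPM in isotype skin (−2.09 ± 0.64, 0.0161). That call was lost under RLE scaling, under keratinocyte scaling and without MAR1 library 3. The other 12 Lce1 genes had values between −1.23 and 0.99, none past the threshold.

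Lce3e and Lce3f moved apart, although 43% of the 31-base words of Lce3f also occur in Lce3e. Lce3e stood at 1.80 to 7.03 CPM in MAR1 skin, against 24.7 to 45.6 CPM in isotype skin (−3.18 ± 0.78, adjusted p = 0.00565, edgeR). Lce3f stood at 73.8 to 231 CPM in MAR1 skin, against 24.15 to 61.8 CPM in isotype skin (1.87 ± 0.74, 0.0497). The Lce3e call was lost under keratinocyte scaling and the Lce3f call under 6 of 14 alternatives. The other 4 Lce3 genes overlapped between the groups.

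Other measures moved with these results. Basal keratinocyte markers (10 of 10 detected) summed to 2064 to 4461 CPM in MAR1 skin, against 16730 to 22710 CPM in isotype skin, suprabasal markers (8 of 8) to 2056 to 3706 CPM, against 5226 to 17500 CPM, and stress keratins (4 of 4) to 1821 to 3832 CPM, against 17790 to 23430 CPM. T cell markers summed to 132 to 242 CPM in MAR1 skin, against 11.3 to 20.2 CPM in isotype skin. Depth, the receptor gene share and the mitochondrial share differed in the same way, and their part in the result was not tested. Per CPM of basal marker, the Lce1 sum was 1.41, 1.52 and 2.01 in MAR1 skin, against 0.195, 0.179 and 0.216 in isotype skin. The Lce3 sum was 0.213, 0.233 and 0.16, against 0.0364, 0.0122 and 0.0207, and the Sprr2 sum 1.23, 1.2 and 1.15, against 0.259, 0.121 and 0.15. The Sprr1 sum was 0.0314, 0.0465 and 0.0439 per marker CPM in MAR1 skin, against 0.111, 0.0539 and 0.106 in isotype skin. Lce6a and the sum of Sprr3, Sprr4 and Sprr5 were also lower in MAR1 skin on this measure.

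cKO skin was set against fl/fl skin, which asks how loss of IL-4 and IL-13 signalling in Pdgfra-expressing cells alters MC903-treated skin. Lce1m was higher in cKO skin and Sprr2b, Sprr2h and Sprr5 were lower, so 4 of 37 members were called (1 higher, 3 lower), 10.8% of them, where 18.7% of all genes were called (12.7% higher and 5.98% lower). The count is below the background. All 14 Lce1 genes and all 6 Lce3 genes had positive log2 fold changes, with medians of 1.35 and 0.83, and 14 of 16 tested Sprr genes had negative ones, with a median of −1.50, where the median of all genes was 0.03. Except for those 4 genes, no member passed the threshold.

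These medians turned on fl/fl library 3. It was the highest of its group for 34 of 37 members, with a median of 6.64 times the mean of the other fl/fl libraries, and fl/fl library 1 was the lowest for 33. Without fl/fl library 3, 19 members were called, all higher (14 Lce1, 4 Lce3 and Lce6a), where 20.3% of all genes were called and 80.6% of those were higher. In that setting the median of all genes was 0.51, the Lce1 median was 3.34, the Lce3 median 2.64 and the Sprr2 median 0.27. Without fl/fl libraries 1 and 2, the libraries with salivary gland transcripts, 3 members were called, all lower, where 3.07% of all genes were called and 73.4% of those were higher. The median of all genes was then 0.53, the Lce1 median was 0.47, the Lce3 median −0.03 and the Sprr2 median −2.73. The direction of the Lce3 and Sprr2 medians thus depended on which fl/fl libraries were used.

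Lce1m stood at 96.5, 189 and 590 CPM in cKO skin, against 9.67, 27.1 and 51.1 CPM in fl/fl skin. Every cKO library lay above every fl/fl library, and the log2 fold change was 3.32 ± 0.74 (adjusted p = 0.00881, edgeR). It kept its call without cKO library 1 and without fl/fl library 3, and lost it without fl/fl libraries 1 and 2 (0.131). Within the Lce1 sum per length the Lce1m share was 3.86% to 4.46% in cKO skin, against 0.801% to 2.52% in fl/fl skin, again without overlap.

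Sprr5 stood at 150, 437 and 104 CPM in cKO skin, against 477, 1040 and 2151 CPM in fl/fl skin (−2.41 ± 0.66, adjusted p = 0.0238, edgeR). Sprr2h stood at 35.75, 97 and 80.8 CPM in cKO skin, against 103, 155 and 1104 CPM in fl/fl skin (−2.67 ± 0.79, 0.0325). For both genes the groups came close to each other without overlapping. Sprr2b stood at 1.63, 3.65 and 1.29 CPM in cKO skin, against 1.2, 4.70 and 259 CPM in fl/fl skin (−5.31 ± 1.56, 0.0333). Here the groups overlapped and fl/fl library 3 alone set the difference. Without that library the log2 fold change was −1.33 for Sprr5 (adjusted p = 0.137), −0.45 for Sprr2h (0.514) and −0.03 for Sprr2b (0.998). Without cKO library 1, the library with Y-linked transcripts, it was −2.17 for Sprr5 (0.0751), −2.35 for Sprr2h (0.0891) and −5.13 for Sprr2b (0.0828), close to the values with all libraries. The Sprr2h and Sprr2b calls were lost on leaving out any cKO library, and the Sprr5 call without cKO library 3 as well.

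Sprr1a stood at 265, 823 and 316 CPM in cKO skin, against 551, 916 and 2426 CPM in fl/fl skin, which overlap (−1.47 ± 0.60, adjusted p = 0.0978, edgeR). Sprr2a2 stood at 3987 to 4351 CPM in cKO skin, against 5459 to 10370 CPM in fl/fl skin, and did not pass the test (−1.03 ± 0.74, 0.334). Summed with Sprr2a1 and Sprr2a3, the level was 4258 to 4751 CPM in cKO skin, against 5780 to 11170 CPM in fl/fl skin. Lce1a1 stood at 287 to 2144 CPM in cKO skin, against 130 to 932 CPM in fl/fl skin (1.30 ± 0.75, 0.232). Libraries of 1 group varied by subfamily. cKO library 3 was the highest of its group for 12 of 14 Lce1 genes, and cKO library 2 was the highest for both Sprr1 genes. Per CPM of basal marker, the Lce1 sum was 1.28 in cKO library 3, against 0.137 and 0.201 in cKO libraries 1 and 2. The part of the low mitochondrial share and raised receptor gene share of cKO library 3 was not tested. Across the Lce1 genes the highest library was a median of 6.4 times the lowest in cKO and 7.95 times in fl/fl skin, against 1.58 times in MAR1 and 1.32 times in isotype skin. Skeletal muscle markers (8 of 8 detected) summed to 21.1 to 2921 CPM in cKO skin, against 10820 to 58320 CPM in fl/fl skin, and basal keratinocyte markers to 8889 to 20150 CPM, against 3893 to 31890 CPM. Their part in the result was not tested.

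**Figure D5:**
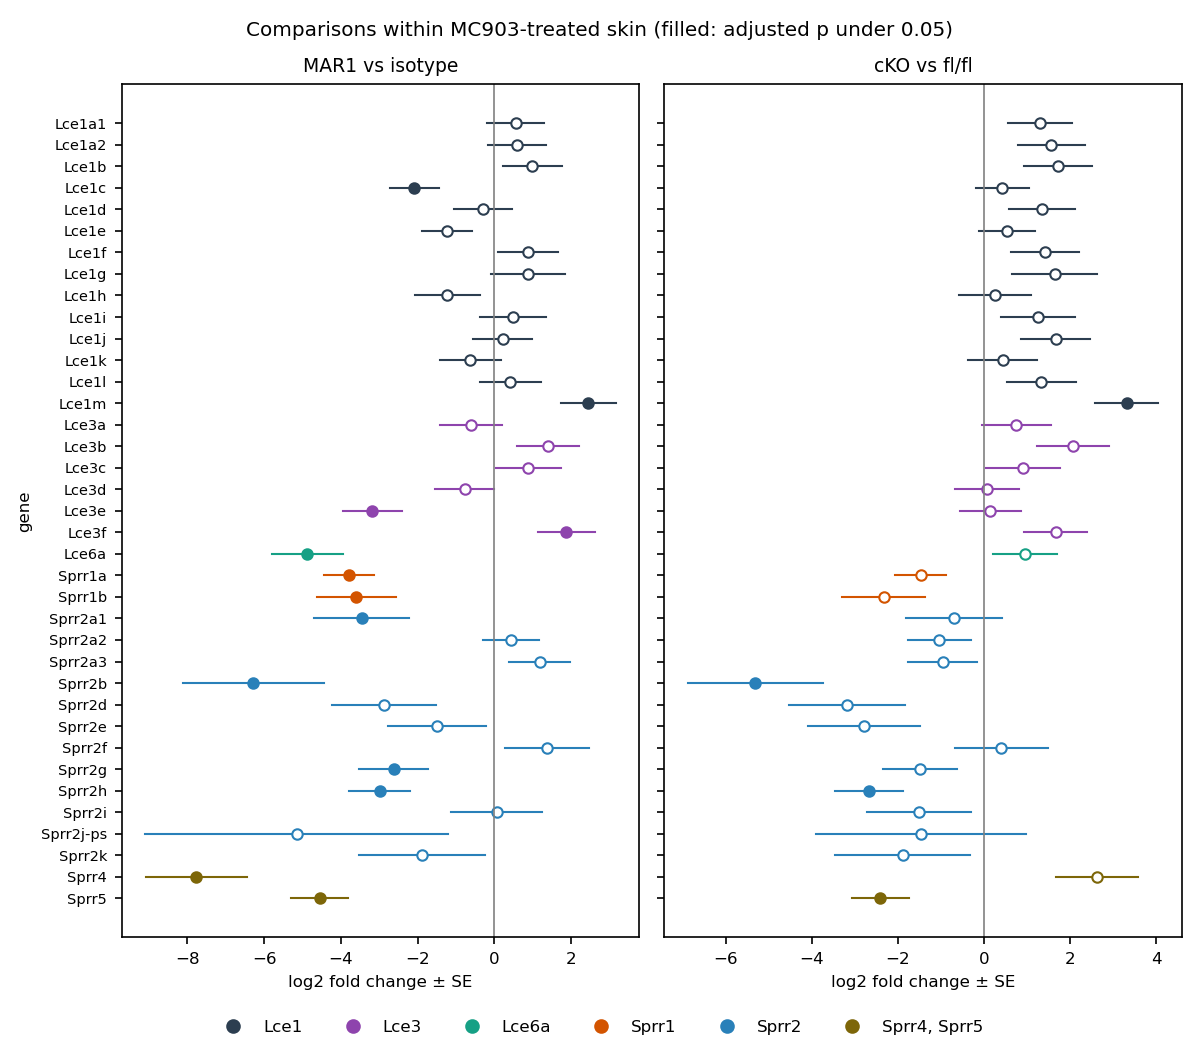
Log2 fold change ± SE of the 37 tested members in MAR1 against isotype skin (left) and cKO against fl/fl skin (right), with filled points at an adjusted p under 0.05 and colours for subfamilies. Lce1m lies right of 0 in both panels (2.44 and 3.32), and 12 of 16 Sprr genes in the left panel and 14 of 16 in the right panel lie left of 0.

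The control arms and the 2 effects were compared directly. Between fl/fl and isotype skin, 1 of 37 members was called (lower), against 5.22% of all genes (1.25% higher, 3.97% lower). It was Sprr4, at 1.58, 2.65 and 3.83 CPM in fl/fl skin, against 21.55, 36.6 and 113 CPM in isotype skin (−4.41 ± 1.03, adjusted p = 0.0386, edgeR). That call was lost without any single isotype library and without fl/fl library 1 or 2. The cKO effect minus the MAR1 effect was called for 2 of 37 members, against 7.96% of all genes (6.13% higher, 1.82% lower), namely Lce6a (5.83 ± 1.18, 0.0226) and Sprr4 (10.40 ± 1.62, 0.0201). Lce6a stood at 13.2, 39.8 and 6.76 CPM in cKO skin, against 3.30, 3.81 and 23.9 CPM in fl/fl skin, which overlap. Sprr4 stood at 4.35, 42.1 and 3.47 CPM in cKO skin, against 1.58, 2.65 and 3.83 CPM in fl/fl skin, which overlap. Only cKO library 2 was high, and the other cKO libraries lay below both untreated libraries (10.8 and 6.99 CPM). Both calls were lost without MAR1 library 3 or any single isotype library, and that of Lce6a also without MAR1 library 2 or fl/fl library 2. Without fl/fl library 3 the fl/fl count was 21 members, all lower than in isotype skin, where 15.2% of all genes were called and 20% of those were higher. The difference of the effects was then called for 20 members, all higher, where 23.3% of all genes were called and 83.9% of those were higher. Without cKO library 3 it was called for 5 members, where 19.5% of all genes were called. For Lce1m, Sprr1a, Sprr1b, Sprr2h and Sprr5 no difference between the cKO and MAR1 effects passed the threshold.

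Other genes of the cornified envelope, its cross-linking and its desmosomes (23 of 25 listed genes were tested) were examined beside the members. Against untreated skin, 3 rose and 9 fell in MAR1, 4 rose in isotype, 5 rose in cKO, and 4 rose and 1 fell in fl/fl skin. Of all genes, 49.4% were called in MAR1, 3.07% in isotype, 6.82% in cKO and 1.72% in fl/fl skin. The number called in MAR1 skin is thus near the background, where 23.5% of all genes were called higher and 25.9% lower. Under keratinocyte scaling the MAR1 counts were 7 higher and 2 lower, where 30.6% of all genes were called and 88.1% of those were higher. Trichohyalin (Tchh), a keratin-filament linker, rose by 4.63 ± 0.57 (adjusted p = 0.000161, edgeR) in MAR1, 7.78 ± 0.66 (0.000165) in isotype, 6.48 ± 0.63 (0.00041) in cKO and 7.58 ± 0.66 (0.000161) in fl/fl skin on the log2 scale. Filaggrin (Flg) averaged 783 CPM in isotype, 541 CPM in cKO and 627 CPM in fl/fl skin, against 44 CPM in untreated skin, and was called higher in each of these. Flg2 was called lower in MAR1 skin, with 95.1 against 481 CPM (−2.34 ± 0.43, 0.000954), and in fl/fl skin, with 44.6 against 481 CPM (−3.43 ± 0.45, 0.00322). The large scaffold protein loricrin was called lower in MAR1 skin alone (−2.85 ± 0.90, 0.019).

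Between MAR1 and isotype skin 11 of these partners were called lower and none higher, among them Tchh (−3.14 ± 0.44, adjusted p = 0.000288, edgeR), sciellin (−6.63 ± 1.21, 0.00102), the filaggrin-processing protease Casp14 (−3.83 ± 0.75, 0.00145) and corneodesmosin (−4.40 ± 0.94, 0.00242). The number called is about the 49.1% of all genes called, but every call was lower, where 26.5% of all genes were called lower and 22.6% higher. The list median was −1.75, against 0 over all genes, and under keratinocyte scaling, which moved all genes upward, it was 0.16, against 1.87 over all genes, with 1 called higher and 5 lower. Between cKO and fl/fl skin involucrin (Ivl, 1.79 ± 0.50, 0.0242) and Flg2 (2.24 ± 0.41, 0.00368) were called higher, and transglutaminase Tgm3 (−3.55 ± 1.00, 0.0278) and corneodesmosin (−3.09 ± 0.88, 0.0287) lower. The number called is about the 18.7% of all genes called. Without fl/fl library 3 the counts were 6 higher and 0 lower, where 20.3% of all genes were called and 80.6% of those were higher.

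Of 25 listed regulators of late differentiation, 1 was called higher and 11 lower in MAR1 than in isotype skin. The number called is close to the 49.1% of all genes called, but most calls were lower. Of all genes 26.5% were called lower and 22.6% higher. Stat6, the transducer of IL-4 and IL-13 signals, averaged 23.6 CPM in MAR1 skin, against 98.5 CPM in isotype skin (−2.06 ± 0.29, adjusted p = 0.000283, edgeR), and the factors Cebpa (−3.34 ± 0.50, 0.000327) and Nfe2l2 (−2.16 ± 0.33, 0.00035) were lower too. Gata3 was higher, 180 against 30.85 CPM (2.55 ± 0.43, 0.000547). The list median was −1.22, against 0 over all genes, and under keratinocyte scaling it was 0.68, against 1.87 over all genes, with 6 called higher and 3 lower. Between cKO and fl/fl skin Ahr (1.34 ± 0.29, 0.00706) and Gata3 (1.35 ± 0.41, 0.0358) were called higher and none lower. Of all genes 18.7% were called, so this count is below the background. Without fl/fl library 3, 7 were called higher, where 20.3% of all genes were called and 80.6% of those were higher. Against untreated skin, Gata3 was called lower in isotype and fl/fl skin, and the AP-1 genes Fos and Jun were called lower in cKO and MAR1 skin.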

How the data were processed

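RNA-seq of 14 neck skin libraries in 5 groups was used. The values are estimated counts per gene that the authors deposited. Salmon 1.2.1, DESeq2 1.44.0 and GRCm39 appear in the submitters' processing notes with no role or order. Estimated counts were rounded to whole numbers. Counts per library totalled 5.78 to 55.3, in units of 1e6, and SE and p-values cover the spread between libraries.

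edgeR 4.0.16 (R 4.3.3) was fitted once to all libraries with 5 group means, TMM scaling, filterByExpr and the robust quasi-likelihood test (common dispersion 0.361, 9 residual degrees of freedom). P-values were adjusted by Benjamini-Hochberg over 20940 genes and called under 0.05. CPM values use TMM library sizes. The SE is the absolute log2 fold change divided by the square root of F. The code was tested on simulated data. Alternatives were DESeq2 1.42.0, RLE scaling, scaling to basal keratinocyte markers, other filters, thinned counts, a replicate block, only the groups compared, summed untreated libraries and each library left out. Leaving out fl/fl libraries 1 and 2 together was chosen after seeing the data.

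Shared 31-base words and lengths came from GENCODE M21 (38 of 39 members, not Sprr5) and promoters from RefSeq GRCm38.p6. As that build differs from the named one, the RefSeq gene table gave names and order only. The members and gene lists were chosen with earlier results of these data known. Named with values are, in each subfamily, up to 4 called members with the smallest p, the member with the highest mean CPM and any member moving against its subfamily, plus up to 4 called genes per list. Lce1c, Lce1a1 in the cKO comparison, Sprr2a2 where uncalled, Sprr1a where uncalled, and further list genes such as Loricrin were added after their values were seen. The design text gives 1 mouse per sample. The 2 untreated libraries differ in name by a suffix only, so their p-values may partly measure technical spread. Replicate libraries of a group differed by more than sampling noise.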

Additional observations from a re-analysis of the deposited data

Results flagged for a closer look

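Sprr4 differed between the control arms of the MAR1 and cKO experiments, with a log2 fold change of −4.41 ± 1.03 in fl/fl against isotype skin (adjusted p = 0.0386, edgeR), where all 3 fl/fl libraries lay below all 3 isotype libraries. The cKO effect minus the MAR1 effect was 10.40 ± 1.62 for Sprr4 (adjusted p = 0.0201, edgeR) and 5.83 ± 1.18 for Lce6a (0.0226), tested as the difference itself. Both genes stood at or near the limit of detection in MAR1 skin and overlapped between cKO and fl/fl skin. Both calls of the difference were lost without MAR1 library 3 or any single isotype library. The Sprr4 call between the control arms was lost under 10 of 15 alternatives.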

How the results depend on the processing

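Pairing each called result with each alternative run for it gave 1278 pairs. The called direction reversed in none of them, and the call was lost in 233. Of 89 called results, 25 kept their call in every alternative run for them. Against untreated skin, 24 members were called in MAR1 skin and 17 to 23 on leaving out 1 library. The isotype count of 15 was 28 with DESeq2, 27 with only the groups compared, 8 with untreated libraries summed and 7 to 10 on leaving out 1 library. The cKO count of 17 was 28 with DESeq2, 7 with only the groups compared, 7 with untreated libraries summed and 5 to 17 on leaving out 1 library. The fl/fl count of 13 was 26 with DESeq2, 0 by edgeR with only the groups compared (23 at an unadjusted p under 0.05), 26 without fl/fl libraries 1 and 2, and 5 to 18 on leaving out 1 library. MAR1 against isotype gave 13, 21 with only the groups compared, 20 under keratinocyte scaling and 9 to 12 on leaving out 1 library. cKO against fl/fl gave 4, 8 with DESeq2, 2 without a filter, 1 with only the groups compared and 2 to 19 on leaving out 1 library (2 without cKO library 2 or cKO library 3, 19 without fl/fl library 3). fl/fl against isotype gave 1 by edgeR and by DESeq2, 0 without a filter, thinned, under keratinocyte scaling or without fl/fl libraries 1 and 2, and 0 to 21 on leaving out 1 library. The cKO effect minus the MAR1 effect gave 2, 4 under keratinocyte scaling, 0 without fl/fl libraries 1 and 2 and 0 to 20 on leaving out 1 library. The causes were not tested.

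Replicate numbers did not pair the libraries: correlations of same-numbered libraries ran from −0.332 to 0.337, and 5 of 14 correlated best with their own number. With a replicate block the count was 11 in cKO against untreated skin, 1 in cKO against fl/fl skin and 0 in fl/fl against isotype skin, and it moved no other count by over 1.5 times. The all-gene median moved by 0.59 under RLE scaling in MAR1 against isotype skin. The shallow MAR1 libraries limit detection to 0.257 to 0.45 CPM for 3 counts.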
